A study of Mus musculus with 12 samples.

Results

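Alas1 encodes the first enzyme of haem synthesis in cells other than red cell precursors, and it is described here together with Alad, Uros, Urod, Cpox, Ppox and Fech, which encode later enzymes of the pathway, Hmox1, which encodes a haem-degrading enzyme, and Tfrc, the receptor for iron-loaded transferrin. The members are all probe sets on the array that the platform annotation pairs with exactly 1 of these 9 symbols, which are 9 of 12393 named genes and 20 of the 22690 probe sets in the table. Of these, 17 entered the test across 22626 probe sets, and 3 are control probe sets of Tfrc, which were left out of the test and are given as descriptions. Alas1 was singled out because of its difference between the genotypes in these same arrays, so its genotype values are a description with no test. The other genes were taken with it for their roles in haem synthesis, haem breakdown or iron uptake. That list was also drawn up with earlier results of these data known.

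The series compared the white, mostly fast-fibred portion of the gastrocnemius of mice transgenic for the R225Q mutant of the γ3 subunit of AMPK, an energy-sensing kinase, with that of wild-type littermates. The 6 transgenic and 6 wild-type mice were all male, on the C57BL/6 strain, of generation F5, aged 17 to 18 weeks and fasted overnight, so that fasting is common to both groups and no fed mice were compared. The labels used here give neither the promoter that drives the transgene nor whether more than 1 founder line was used. Prkag3, which encodes γ3, was not analysed here, so the genotype labels were not checked against their targeted gene. Each mouse gave 1 Affymetrix MOE430A array, transgenic mice being numbered 1 to 6 and wild-type mice 7 to 12.

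Haem is made from glycine and succinyl-CoA in a chain of enzymes that begins in the mitochondrion, passes through the cytosol and ends in the mitochondrion, where iron is inserted into protoporphyrin. Alas1 sets the pace of the chain outside the erythroid lineage, and its product is held back by haem itself. In mouse liver Alas1 is known to be induced in fasting through the coactivator PGC-1α, and in muscle haem is needed for myoglobin, the cytochromes of the respiratory chain and soluble guanylate cyclase.

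The promoter of Alas1 is shown because Alas1 is the gene on which the values below turn, and because the nuclear respiratory factor NRF-1 is known from rat to act on the promoter of this gene. The RefSeq table of GRCm38.p6 held promoter windows for 7 of the 9 genes, and Fech and Hmox1 had none and were not searched. The 11 windows of 300 bases reached from 250 bases before an annotated start to 50 bases after it. The capitals mark the core letters of an NRF-1 site, which were searched on both strands and in which the fifth base may be any of the 4. The Alas1 window lies at chr9:106247905-106248204 on the minus strand, and the Uros stretch, 30 bases around its match, at chr7:133709323-133709352 on the minus strand.
Alas1: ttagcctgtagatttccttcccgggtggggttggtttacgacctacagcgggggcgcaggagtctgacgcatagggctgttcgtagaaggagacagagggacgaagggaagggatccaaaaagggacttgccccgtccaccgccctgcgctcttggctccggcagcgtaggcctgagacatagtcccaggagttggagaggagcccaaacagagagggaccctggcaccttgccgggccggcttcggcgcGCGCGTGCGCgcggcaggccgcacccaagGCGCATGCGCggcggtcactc
Uros: cggtcacactGCGCCTGCGCgagtcccgcc

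Both windows of Alas1, which overlap, held the same pair of matches, and the second match in the sequence shown reads the same on both strands. Among the members with a window only Alas1 and Uros held the NRF-1 letters, which occur in 4.6% of the 32851 promoter windows in the table. Only Alas1 held the form that reads the same on both strands, which occurs in 0.971% of them. These were 2 of 14 letter strings searched, of which 3 occurred in an Alas1 window, and the strings shown were chosen after the matches were seen. The third, TGACG, occurs in 20.8% of all windows and also in windows of Alad, Uros, Cpox, Ppox and Tfrc. The strings for CRE, E-box, FOXO, antioxidant response, ERR, ETS, SP1, nuclear receptor half-site, hypoxia response, MEF2 and CCAAT elements, also searched on both strands, were not in an Alas1 window. A match of letters is not evidence that a factor binds there.

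Arrays correlated with each other at 0.985 or more. Transgenic mouse 1 and wild-type mouse 7, hybridised on arrays of a smaller chip lot, had the lowest mean correlations with the other arrays, 0.990 and 0.989, and the greatest excess of 3′ over 5′ probe signal for Gapdh, 0.185 and 0.184 on the log2 scale.

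Alas1 messenger RNA was higher in every transgenic mouse than in any wild-type mouse on the brighter of its probe sets, 1424126_at. On the log2 scale this probe set ranged from 9.26 in mouse 5 over a median of 9.37 to 9.56 in mouse 1 among transgenic mice, and from 9.002 in mouse 8 over a median of 9.04 to 9.13 in mouse 7 among wild-type mice. The groups did not overlap, and transgenic mice 1 and 4 stood above the other 4 of their genotype. Transgenic mice had a mean of 9.40 ± 0.12 and wild-type mice one of 9.05 ± 0.05 (SD over 6 mice), so that the log2 fold change was 0.35 ± 0.06 (SE), or 1.28-fold. Alas1 lies at chr9:106233455-106247954 on GRCm38.p6.

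The dimmer Alas1 probe set, 1455282_x_at, ran from 7.95 over a median of 8.03 to 8.21 in transgenic and from 7.78 over a median of 7.83 to 8.05 in wild-type mice. Here the groups overlapped, through wild-type mouse 12, whereas the other 5 wild-type mice lay below all 6 transgenic mice. Its log2 fold change was 0.17 ± 0.06. The suffix of its name is Affymetrix's mark for a probe set some of whose probes may also match other sequences. Once the genotype means were removed, the deviations of both probe sets over the 12 arrays had a Pearson r of 0.32 and a Spearman rho of 0.11, a description over arrays that share their hybridisation days and normalisation.

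Of the 17 tested member probe sets, the brighter one of Alas1 alone passed the adjusted threshold of 0.05 in limma, against 0.0707% of all probe sets tested, which is 16 of 22626, and 0.0442% for higher levels. Nothing is read from that share, since Alas1 was chosen on this contrast. With the hybridisation run as a block, each of the 4 runs of 3 arrays holding both genotypes, its log2 fold change was 0.34 and 0 of the 17 member probe sets passed. The brighter Alas1 probe set and the probe set of Urod were the members whose groups did not overlap, against 0.504% of all probe sets, and both were higher in transgenic mice, as were 0.243% of all probe sets. By the size of its change, the brighter Alas1 probe set stood at rank 114 of those tested, and by its p-value at rank 14. Both ranks, like its lack of overlap, come from the contrast on which Alas1 was chosen and lend it no support.

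**Figure D1:**
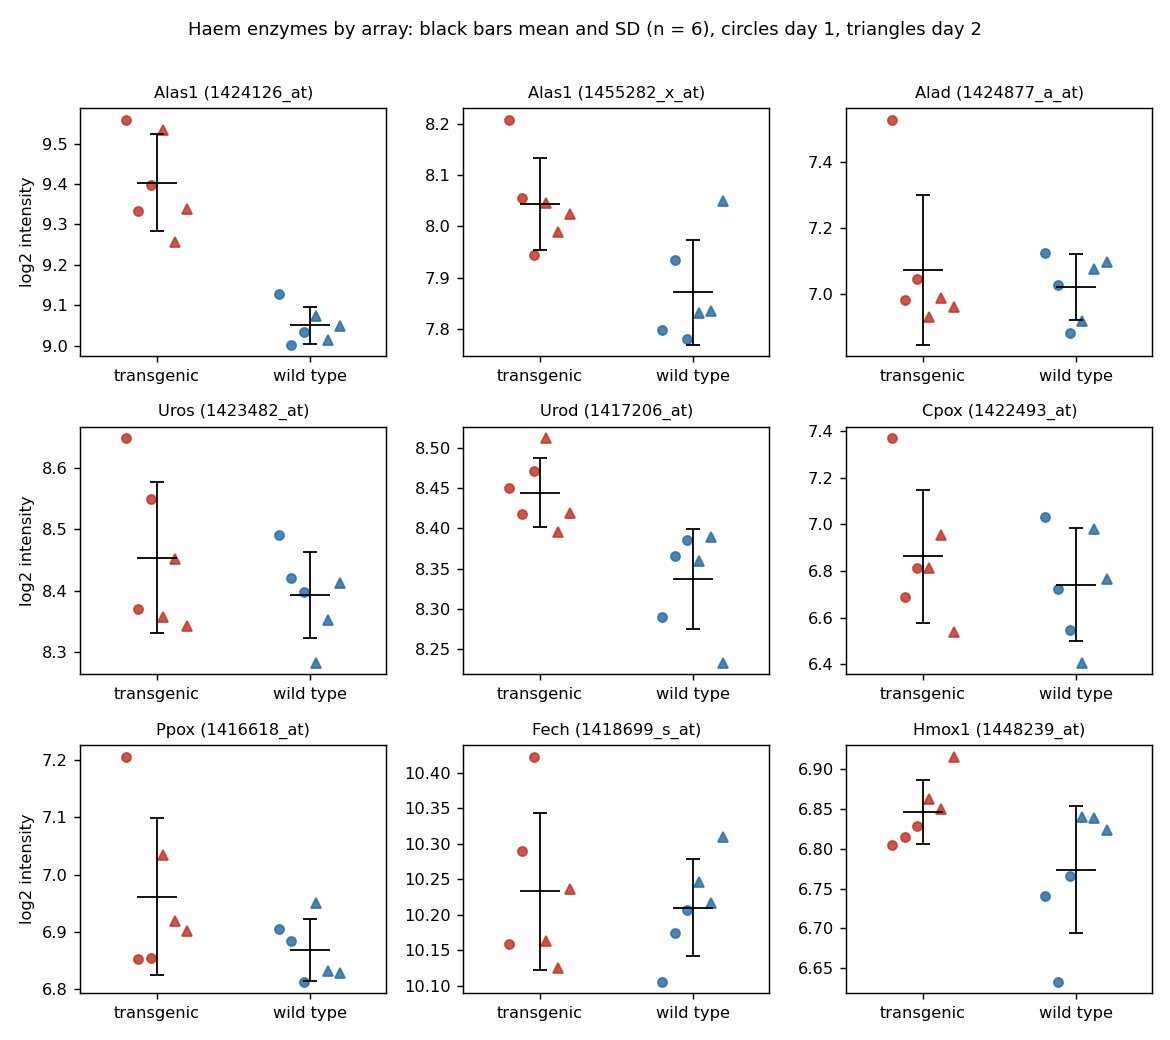
Log2 intensity of the haem enzymes on each of the 12 arrays, with 1 panel per probe set, both probe sets of Alas1 and the brightest of each other enzyme. Red points are transgenic and blue points wild-type mice, circles were hybridised on day 1 and triangles on day 2, and black bars give the mean and SD (n = 6), on axes that do not start at 0. Groups are apart for Alas1 1424126_at and Urod, and transgenic mouse 1 is the highest array for Alad at 7.53.

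The later enzymes had slightly higher means in transgenic muscle on the brightest probe set of each gene, but none of them passed the test. Counting 1 probe set per gene, the one with the highest mean, 6 of 6 measured enzymes other than Alas1 and its erythroid counterpart Alas2 had a positive log2 fold change, with a median of 0.08 and a range from 0.02 to 0.12. With Alas1, whose sign was fixed by its choice, and Alas2, which is not a member, the count was 8 of 8. Under both other scalings of the arrays the counts were the same. Over all genes 49.4% of representative probe sets were positive, with a median of -0.0013. The signs of the 6 come from the same 12 arrays and are not independent. With genotype means removed, Alad, Uros and Cpox varied together (r between 0.77 and 0.85). Ppox followed them less closely (0.40 to 0.67), and Urod and Fech did not (-0.42 to -0.09). Without transgenic mouse 1 the median of the 6 was 0.03. The sign count was lower in some subsets chosen after the data were seen: on day 2 alone 4 of the 6 were positive, with Alad and Fech negative, and 5 of the 6 were positive in the larger chip lot or without transgenic mouse 1 (Alad negative), and without transgenic mouse 3 (Fech negative).

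Alad, in the cytosol, condenses aminolevulinate into porphobilinogen (chr4:62505984-62520063). Its probe set 1424877_a_at ran from 6.93 over 6.98 (median) to 7.53 in transgenic and from 6.88 over 7.05 to 7.12 in wild-type mice. Transgenic mouse 1 held the top value, the other 5 transgenic mice reached 7.04 at most, and the groups overlapped. The log2 fold change was 0.05 ± 0.09 (limma adjusted p = 0.999), and without transgenic mouse 1 it was -0.04.

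Uros closes the tetrapyrrole ring (chr7:133686142-133710467). Probe set 1423482_at ran from 8.34 over 8.41 to 8.65 in transgenic and from 8.28 over 8.40 to 8.49 in wild-type mice, and mouse 1 and mouse 7, the arrays of the smaller chip lot, were the highest of their genotypes. The groups overlapped, with a log2 fold change of 0.06 ± 0.06 (limma adjusted p = 0.999).

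Urod, which removes carboxyl groups to give coproporphyrinogen, was the other member whose groups were apart (chr4:116989965-116994436). Probe set 1417206_at ran from 8.40 over 8.43 to 8.51 in transgenic mice and from 8.23 over 8.36 to 8.39 in wild-type mice. The gap between the lowest transgenic and the highest wild-type mouse was small, and the log2 fold change of 0.11 ± 0.05 was 1 of 1047 with an unadjusted p under 0.05 (4.63% of all probe sets) and did not pass after adjustment (limma adjusted p = 0.992). It was 0.10 on day 1 and 0.11 on day 2.

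Cpox and Ppox carry out the last oxidations before iron is inserted. The brighter probe set of Cpox, 1422493_at (chr16:58670208-58680391), ran from 6.54 over 6.81 to 7.37 in transgenic and from 6.40 over 6.74 to 7.03 in wild-type mice, with transgenic mouse 1 again highest. Its log2 fold change was 0.12 ± 0.13, and the dimmer 1422492_at was at 0.02 ± 0.06 (limma adjusted p = 0.999 for both). The probe sets of Ppox (chr1:171276991-171281193) pointed opposite ways, 1416618_at at 0.09 ± 0.06 and the dimmer 1448065_at at -0.08 ± 0.08 (limma adjusted p = 0.999 for both). Without transgenic mouse 1, these log2 fold changes were 0.044 and -0.0016. The brighter of them ran from 6.85 over 6.91 to 7.21 in transgenic and from 6.81 over 6.86 to 6.95 in wild-type mice, and the groups overlapped.

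Fech inserts iron into protoporphyrin, and none of its 4 probe sets passed. Their log2 fold changes were 0.02 ± 0.06 (1418699_s_at, the brightest), 0.17 ± 0.11 (1449181_at), 0.09 ± 0.17 (1418698_a_at) and -0.00 ± 0.06 (1427696_at), each with a limma adjusted p of 0.999 and overlapping groups. The brightest ran from 10.13 over 10.20 to 10.42 in transgenic and from 10.11 over 10.21 to 10.31 in wild-type mice. Probe sets 1449181_at and 1418698_a_at varied together among mice of 1 genotype (r = 0.89, rho = 0.94 over 12 arrays with genotype means removed). Both were lowest in wild-type mouse 7 and highest in transgenic mouse 4. The brightest probe set followed them less closely (r = 0.61 and 0.60), and 1427696_at did not follow them (r = -0.23 and -0.50).

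**Figure D2:**
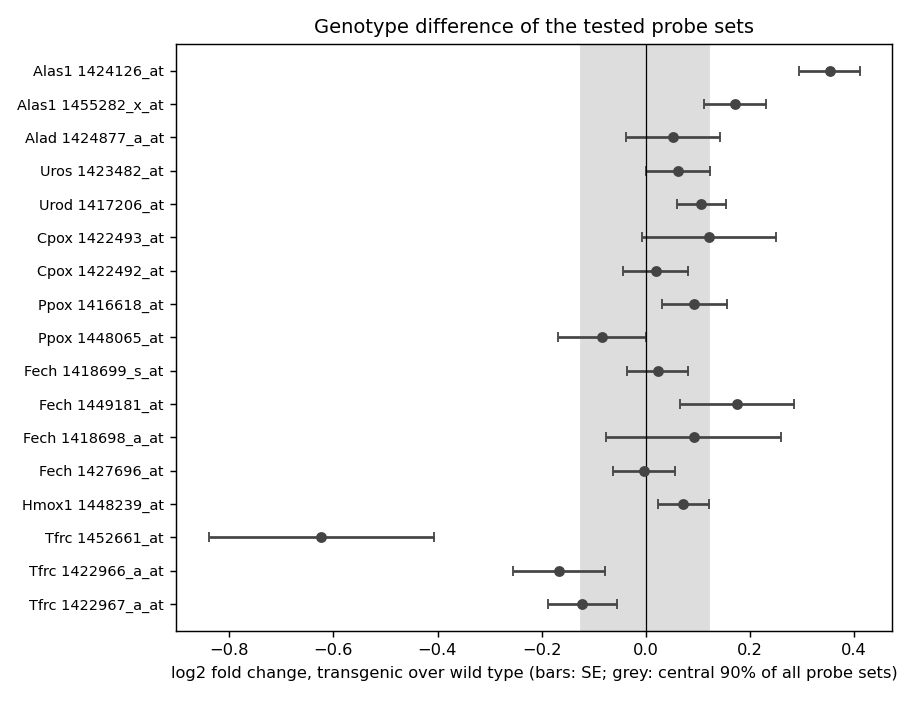
Log2 fold change, transgenic over wild type, of the 17 tested probe sets, with bars for the SE, on the x axis, and the probe sets by gene on the y axis. The grey band holds the central 90% of all 22626 probe sets, from -0.12 to 0.12, and Alas1 1424126_at at 0.35 and Tfrc 1452661_at at -0.62 lie farthest outside it.

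Hmox1, the inducible haem oxygenase, opens the haem ring and frees its iron (chr8:75093618-75100593). Probe set 1448239_at ran from 6.81 over 6.84 to 6.92 in transgenic and from 6.63 over 6.80 to 6.84 in wild-type mice, so the groups overlapped. The log2 fold change was 0.07 ± 0.05 (limma adjusted p = 0.999). All 4 measured genes of haem breakdown had positive values, between 0.00 for the lowest and 0.09 for Hmox2, the constitutive oxygenase, and none passed.

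Tfrc had lower means in transgenic muscle on all 3 tested probe sets, but none passed. The transferrin receptor takes up iron, and its messenger RNA is known to be stabilised by iron regulatory proteins when iron is scarce. Probe set 1452661_at, the brightest (chr16:32608896-32632794), ran from 7.70 in mouse 5 over 8.37 to 9.30 in mouse 1 among transgenic mice and from 8.66 over 8.97 to 9.64 among wild-type mice. The groups overlapped because of transgenic mice 1 and 2, and the other 4 transgenic mice lay below all wild-type mice. The log2 fold change was -0.62 ± 0.22, the largest among the members in size, with a limma adjusted p of 0.723 and a spread of 0.55 (SD) in transgenic and 0.35 in wild-type mice. The other tested probe sets were at -0.17 ± 0.09 (1422966_a_at) and -0.12 ± 0.07 (1422967_a_at), with limma adjusted p-values of 0.999, and the 3 control probe sets differed by -0.11, -0.05 and -0.04.

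The log2 difference of the first probe set was -0.52 on day 1 and -0.72 on day 2. Its deviations within genotypes followed those of 1422966_a_at (r = 0.79, rho = 0.67 over 12 arrays) but not those of the dim 1422967_a_at (r = -0.16). Between the days of hybridisation, a contrast that the choice of members did not use, the difference (day 2 minus day 1) was -0.47 ± 0.18 for 1452661_at, -0.19 ± 0.08 for 1422966_a_at and 0.09 ± 0.06 for 1422967_a_at, and none passed (limma adjusted p = 0.471, 0.494 and 0.657). In that contrast 0 of 22626 probe sets passed in limma, with 2136 at an unadjusted p under 0.05 (9.44%).

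**Figure D3:**
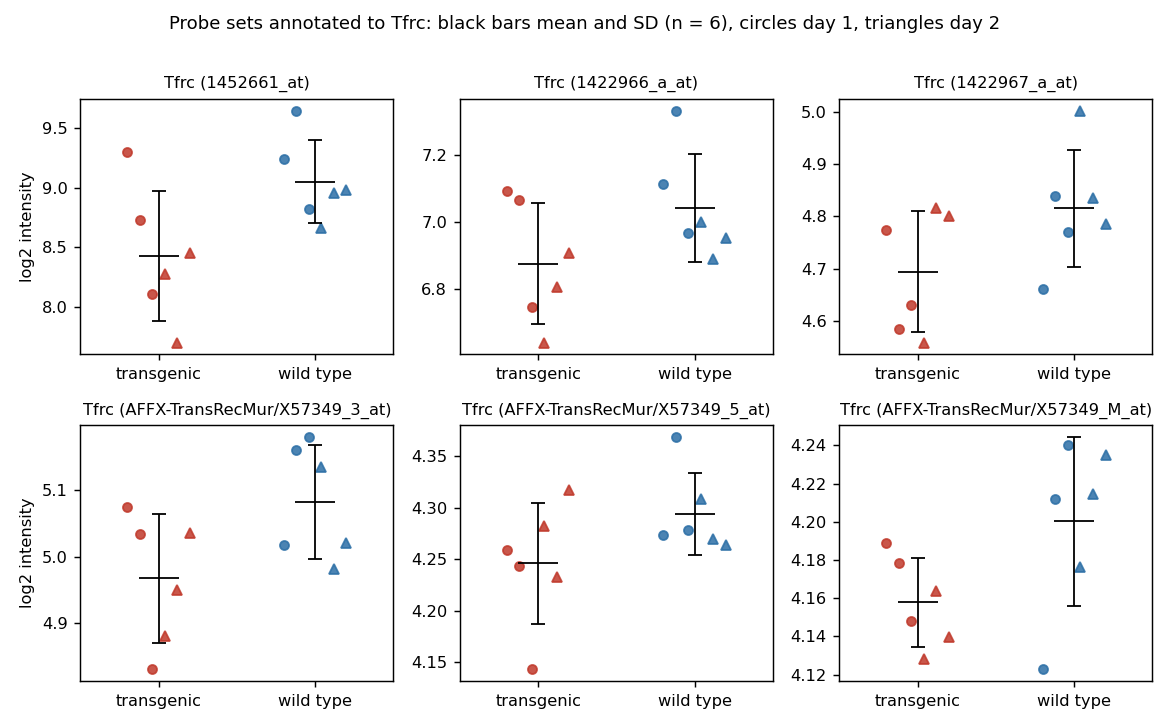
Log2 intensity of the 6 probe sets annotated to Tfrc on each of the 12 arrays, the lower row being the control probe sets, with symbols as for the haem enzymes. For 1452661_at, transgenic mouse 1 at 9.30 and mouse 2 at 8.73 lie inside the wild-type range, and the other 4 transgenic mice below it.

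The genotype difference of Alas1 had the same sign on both days. It was 0.38 among the day 1 arrays and 0.33 among the day 2 arrays for 1424126_at, and 0.23 and 0.11 for 1455282_x_at. No member passed in the test of a genotype by day interaction, in which 0 of 22626 probe sets passed in limma and 688 had an unadjusted p under 0.05 (3.04%). The interaction was -0.05 ± 0.12 for the brighter Alas1 probe set, a description given that choice, and -0.21 ± 0.11 for the brightest Fech probe set (limma adjusted p = 0.999).

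A set of genes around the pathway was examined by lists, with 1 probe set per gene. Of 10 measured genes of glycine and succinyl-CoA metabolism, 9 had positive values and none passed, with a median of 0.07. Over all genes 0.0888% of representative probe sets passed. The list mixes genes whose products make these compounds with others, such as Gldc and Gcsh, that act in breaking glycine down. Dlst and Dld, subunits of the oxoglutarate dehydrogenase complex that makes succinyl-CoA, were at 0.13 ± 0.06 and 0.15 ± 0.09. Of 19 genes of haem transport and insertion, 11 were positive and none passed, with a median of 0.02. Slc25a39, a mitochondrial carrier needed for glutathione import and haem synthesis, was at 0.15 ± 0.07 on its brightest probe set and between 0.15 and 0.23 over its 3 probe sets.

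Among 22 genes of iron uptake, storage and export, 11 were positive and none passed, with a median of -0.00. The values at both ends of this list belonged to genes with different roles in iron movement. Slc40a1, the iron exporter ferroportin, ranged from 9.14 over 9.22 to 9.55 in transgenic and from 8.30 over 8.82 to 9.11 in wild-type mice on probe set 1417061_at, and the groups did not overlap. Its log2 fold change was 0.46 ± 0.11 (limma adjusted p = 0.348), and its second probe set was at 0.26 ± 0.08. Hfe, which binds the transferrin receptor, was at 0.35 ± 0.11 (limma adjusted p = 0.631), and its second probe set at 0.15 ± 0.13. Fth1, the ferritin heavy chain, a gene named after its value was seen, was at -0.05 ± 0.05. Among 10 genes of the responses to iron, haem, low oxygen and oxidative stress, 7 were positive and none passed. Of 15 genes of iron-sulphur cluster assembly, 12 were positive and none passed, the highest being Fdx1, a ferredoxin, at 0.23 ± 0.06 (limma adjusted p = 0.481).

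Of 23 measured genes listed around the control of Alas1 or its protein, 8 were positive and none passed, with a median of -0.03. The list is broad and holds general or mitochondrial factors, such as Sp1 and Tfam, not all of them known to act on Alas1. Ppargc1a, which encodes PGC-1α, was at -0.08 ± 0.11, and Nrf1, which encodes NRF-1, at -0.00 ± 0.07, with limma adjusted p-values of 0.999; both were named after their values were seen. Egr1, an immediate early transcription factor, had the largest value, 1.24 ± 0.36 (limma adjusted p = 0.531), with a spread of 0.98 (SD) among wild-type mice. Of 36 genes listed as haem proteins, members of their complexes or related enzymes, 24 were positive, with a median of 0.04. Some of them carry no haem, such as Sqle and Cyb5r3. Nos1, the neuronal nitric oxide synthase, which carries haem, passed at 0.47 ± 0.07 (limma adjusted p = 0.0211), from 9.08 over 9.19 to 9.57 in wild-type to 9.68 over 9.69 to 9.80 in transgenic mice. Its second probe set was at 0.12. Nos1 passed in 5 of the 12 fits that left out 1 mouse, those without transgenic mouse 1 or 4 or wild-type mouse 7, 10 or 12, with log2 fold changes between 0.44 and 0.54. Cycs, cytochrome c, was at 0.17 ± 0.07, and Mb, myoglobin, named after its value was seen, at -0.05 ± 0.12.

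**Figure D4:**
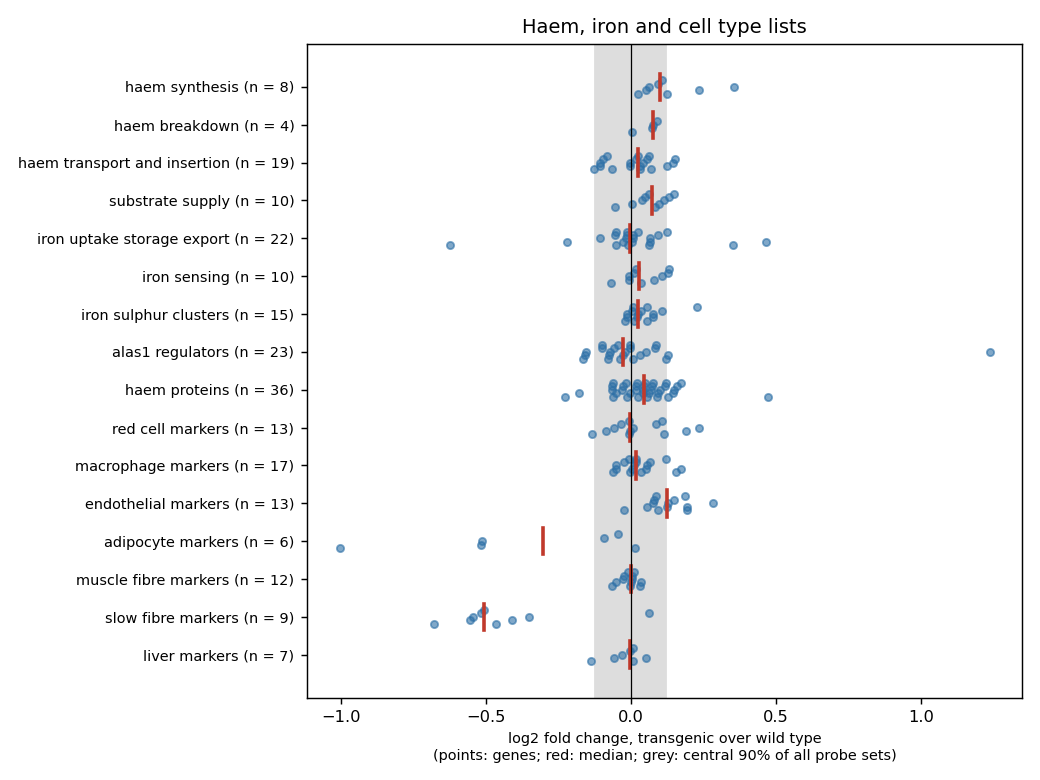
Log2 fold change, transgenic over wild type, of the genes in the haem, iron and cell type lists, with 1 point per gene, a red line at the median, and the number of genes measured after each name. The grey band holds the central 90% of all probe sets, and the medians of slow fibre and adipocyte markers, -0.51 and -0.31, lie outside it, with that of endothelial markers, 0.12, at its edge.

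Of a list of muscle fibre genes, among them Myh4 and Actn3 of fast fibres, Ckm and Acta1 of muscle in general and Mb, which oxidative fibres hold more of, all 12 measured lay above the median probe set, with a median log2 fold change of -0.00. Markers of some other cell types differed in mean between the genotypes, and their part in the Alas1 result was not tested. In these bulk samples fewer cells of a type and less RNA per cell cannot be told apart. Of 9 genes listed as slow fibre markers, 8 had lower means in transgenic mice, with a median of -0.51, and none passed. The list includes Myh2, a myosin of fast oxidative fibres, with a mean of 11.37 in transgenic and 11.73 in wild-type mice. For Myh7, the slow myosin, these means were 6.41 and 6.92. The summed linear intensities of the list ran from 3573 to 7173 in transgenic and from 4161 to 9769 in wild-type mice. Bright genes such as Myh2 weigh most in these sums. Of 13 endothelial markers, 12 had higher means and none passed, with a median of 0.12 and sums from 2852 to 3045 in transgenic and from 2598 to 2788 in wild-type mice, which did not overlap. Adipocyte markers had lower means in 5 of 6, with a median of -0.31 and sums from 2390 to 3194 in transgenic and from 2349 to 4390 in wild-type mice. Means were higher for 11 of 17 macrophage and 3 of 7 liver markers, and none of these lists held a gene that passed.

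With genotype means removed, the deviations of Alas1 1424126_at over the 12 arrays were set against those of each cell type list. The values were r = 0.66 and rho = 0.67 for the endothelial list and r = -0.59 and rho = -0.57 for the red cell list. They were r = -0.58 and rho = -0.41 for the macrophage list, and r = 0.32 and rho = 0.30 for the slow fibre list. For the liver, adipocyte and muscle fibre lists r was -0.16, -0.06 and -0.002. The dimmer probe set 1455282_x_at gave r = 0.06 with the endothelial list, -0.53 with the red cell list and -0.24 with the macrophage list. It gave -0.42 with the liver, 0.12 with the adipocyte, 0.11 with the muscle fibre and -0.03 with the slow fibre list. Only 5 of the 13 red cell markers lay above the median probe set, so that list mean rests mostly on dim probe sets. These correlations share 12 arrays, their hybridisation days and their normalisation, and are given as descriptions.

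Blood in the muscle was followed through the adult globins. Alas2, which makes aminolevulinate in red cell precursors, was at 0.23 ± 0.19 (limma adjusted p = 0.999) and ranged from 7.82 over 8.18 to 9.25 in transgenic and from 7.79 over 8.05 to 8.36 in wild-type mice, with transgenic mouse 3 far above the rest. Of 13 red cell markers 6 were positive, and only 5 lay above the median probe set. Globin probe sets that the annotation pairs with several adult α or β globin genes, chosen after their values were seen, tracked Alas2 from mouse to mouse at r = 0.97 and rho = 0.92, and at r = 0.94 without transgenic mouse 3 and wild-type mouse 12, the arrays farthest from the median globin level. The brightest Fech probe set followed them at r = 0.77 and rho = 0.51, but at r = 0.17 without these mice, so that relation rests on them. For Alas1 1424126_at against these globin probe sets r was -0.13, beside the -0.59 against the red cell marker list given above.

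**Figure D5:**
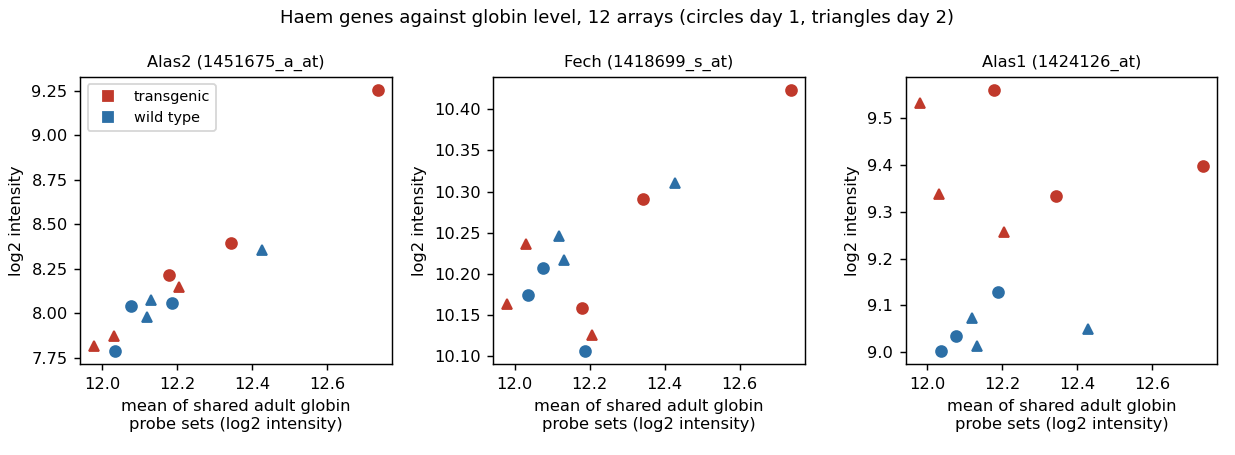
Log2 intensity of Alas2, of the brightest Fech probe set and of Alas1 1424126_at against the mean log2 intensity of the 4 probe sets shared by adult globin genes, on the 12 arrays. Red points are transgenic and blue points wild-type mice, circles are day 1 and triangles day 2. Alas2 rises with the globins up to transgenic mouse 3 at 9.25, whereas the Alas1 values separate by genotype.

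Among 7462 named genes above the median probe set, those whose deviations from the genotype means were most like those of Alas1 1424126_at over the 12 arrays were Phip (r = 0.95), Impa1 (0.94), Exosc4 (0.92), Irx3 (0.92) and Prmt5 (0.91). Without transgenic mice 1 and 4, whose Alas1 levels were farthest from the median, these r values fell to between 0.74 and 0.84. The genes were picked for their r over these same arrays, so all of these r values are descriptions. Of these genes Irx3, a homeobox factor, had a log2 fold change of 0.32 ± 0.09, and the others lay between 0.01 and 0.08.

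The arrays of transgenic mouse 1 and wild-type mouse 7, the smaller chip lot, bear on Alas1 as follows. Within the other 10 arrays the log2 difference of Alas1 1424126_at was 0.34, and without transgenic mouse 1 alone it was 0.32. When single arrays were left out, the log2 fold change lay between 0.32 and 0.38 over the 12 fits, and the threshold was missed in all but 3 of them, those without transgenic mouse 1, transgenic mouse 5 or wild-type mouse 7. These refits use the contrast on which Alas1 was chosen and lend it no support.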

How the data were processed

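The deposited table holds 1 column of linear probe set intensities for each array, which the authors made with RMA, per the submitters' processing notes. The RMA version and the probe definition file are not given in the sources used here. The deposited settings text of each array, not expression data, gave the 2 hybridisation days, 4 runs of 3 arrays and the chip lots. Values were taken to log2 with no pseudocount added. The 64 control probe sets were set apart, and limma 3.58.1 (R 4.3.3, lmFit then eBayes, two-sided) compared transgenic with wild-type arrays over 22626 probe sets, all of them entering the Benjamini-Hochberg adjustment at 0.05. The settings text names 12 different animals, so replicates are mice, and their number limits the precision. Without probe-level intensities, detection above background was not assessed. The test was checked on simulated data.

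The members, lists and naming rule were chosen with earlier results of these data known. Named genes are all member probe sets, then from each list any gene past the threshold and up to 3 further genes of smallest p whose level exceeded the median probe set, all globins and Alas2, and the 5 genes most like Alas1. Lists are described by counts and medians with 1 probe set per gene, the one of highest mean. Alternatives were batch blocks, batches alone, leaving out each array, other scalings, a dim filter and other models of the spread. Promoter windows come from RefSeq on GRCm38.p6.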

Additional observations from a re-analysis of the deposited data

Results flagged for a closer look

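Within a group of 6 arrays, 3 of the 42 groups tested (each member probe set and Alas2, in each genotype) held 1 array far from the other 5, judged by its gap to the nearest array as a share of the group's range (Dixon's critical value 0.625). Chance gives about 1 in 20 such groups. Alad in transgenic mouse 1 was at 7.53 against 7.04 for the next highest, a share of 0.81. Ppox probe set 1448065_at in transgenic mouse 1 was at 4.97 against 5.39 for the next lowest, a share of 0.714. Cpox probe set 1422492_at in transgenic mouse 3 was at 6.42 against 6.25 for the next highest, a share of 0.647. Of the 3, 2 were on the array of transgenic mouse 1, which came from the smaller chip lot.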

How the results depend on the processing

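The sign of the brighter Alas1 probe set held in all 24 alternatives run, with log2 fold changes between 0.32 and 0.38, and it passed the threshold in 12 of them, all refits of the contrast on which Alas1 was chosen and therefore no support for it. The member count was 1 in the main fit and 0 with the run as a block (Alas1 at 0.34), on day 1 alone (0.38) and on day 2 alone (0.33), the single days having 3 arrays per genotype, and 0 to 1 when 1 array was left out. The whole-array count of 16 became 6 with the run as a block, 34 with the chip lot as a block, 1 on day 1, 2 on day 2, 41 with array quality weights and 5 to 18 on leaving out 1 array. The day contrast gave 1 call among probe sets above the median probe set and 0 to 6 on leaving out 1 array. Haem synthesis enzymes with a positive difference numbered 5 of 8 on day 2 and 7 to 8 on leaving out 1 array, alternatives added after seeing the data. Signs turned for members near 0: Cpox 1422492_at (-0.014 with the run block, -0.012 on day 1, -0.017 to 0.045 leaving out 1 array), Alad (-0.070 on day 2, -0.019 in the larger lot, -0.039 to 0.081), and Fech 1418699_s_at (-0.083 on day 2, -0.015 to 0.044), 1418698_a_at (-0.13 on day 2, -0.0019 with weights, -0.030 to 0.18) and 1427696_at (0.018 with the run block, 0.037 on day 2, 0.0028 with quantile normalization, 0.0042 with weights, -0.026 to 0.022). Among other named genes signs turned for Alas2 (-0.19 on day 2), Ppargc1a (0.0035 on day 2, -0.15 to 0.0092 leaving out 1 array), Nrf1 (0.0016 with the run block, 0.042 on day 2, -0.052 to 0.030) and Mb (0.029 on day 2, -0.12 to 0.022), and Nos1 missed the threshold with the run block, on either day and with quantile normalization (adjusted p from 0.0820 to 0.978). The likeness of Phip to Alas1 was r = 0.81 without the 2 farthest arrays. The causes were not tested. No paired analysis was possible because the replicate numbers, 1 to 6 and 7 to 12, are not shared between genotypes. A background correction alternative was not run, since no probe-level intensities were used here.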
